A study of Sus scrofa with 30 samples.

Results

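Unirradiated plasma of the Göttingen minipig was described from the 6 libraries drawn before total body irradiation (TBI), out of 30 libraries in the series. The members were chosen by their labelled time point alone. C7 is the plasma drawn 7 days before TBI and C1 the plasma drawn 1 day before it, with 1 library per animal at each time, so that 3 C7 and 3 C1 libraries came from the same 3 male minipigs, aged about 4 months. The animals are called minipig 1, 2 and 3. No animal had received radiation at either draw. All 3 later received a 2.2 Gy dose and did not survive, so the baseline holds no animal that outlived TBI. Both groups were treated alike, with plasma prepared from anticoagulated venous blood of isoflurane-treated minipigs and made into TruSeq small RNA libraries. Each library gave a raw count for 411 ssc-miRNAs, the pig miRNAs of miRBase.

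MicroRNAs are short RNAs that pair with messenger RNAs mainly through their seed, bases 2 to 8 of the mature strand, and lower the output of those messengers. They reach plasma inside vesicles, bound to proteins, or from cells that burst or activate during the draw. Red cells are rich in miR-451, miR-144 and miR-486, so that miR-451 set against miR-23a, which red cells hold at a low level, is a usual index of haemolysis. In bulk plasma, fewer vesicles or cells of a kind and less RNA from each cannot be told apart.

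The seeds of miRNAs on which the results turn are shown because they set apart families that share targets from miRNAs that only move together. All letters are seed bases, written 5′ to 3′, as the study's network table gives them for the seed group of that name. The first 4 belong to red cell miRNAs, the next 2 to miRNAs that differed between animals or belong to a group that moved together, and the last to the let-7 family.
miR-451a: AACCGUU
miR-486-5p: CCUGUAC
miR-16-5p: AGCAGCA
miR-92a-3p: AUUGCAC
miR-374b-5p: UAUAAUA
miR-124-3p: AAGGCAC
let-7a-5p: GAGGUAG
The red cell miRNAs miR-451, miR-486, miR-16 and miR-92a thus carry 4 different seeds.

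The depth of the libraries followed the animal. Minipig 1 had 24341 counts at C7 and 139786 at C1, minipig 2 had 226891 and 259716, and minipig 3 had 413030 and 423325, so that animal and depth cannot be told apart. The median count per ssc-miRNA was 12 in the shallowest library and 298 in the deepest of C7, and 177 of the 411 ssc-miRNAs had fewer than 10 counts in that shallowest library. The C7 library of minipig 1 also stood apart in its profile, with Pearson correlations of 0.62 to 0.79 with the other 5 libraries in log2 CPM across ssc-miRNAs. Log2 CPM here is the log2 of CPM, the count of an ssc-miRNA relative to its library total, with TMM scaling and a prior count of 2. The other 10 library pairs had correlations of 0.81 to 0.97. Counts of calls, medians of marker groups and ratios to miR-186, miR-4332 or miR-451 are therefore also given without the C7 library of minipig 1. This was done where its removal turned a direction, changed a call or moved the value by more than 1.5 times. Ratios of hairpin arms and of neighbouring miRNA genes were not recomputed without that library.

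Resting plasma held nearly every ssc-miRNA of the table, but few of them made up most of the counts. Of the 411 ssc-miRNAs, 404 had at least 1 count in all 6 libraries, 233 had at least 10 counts and 62 had at least 50. The 7 that had no count somewhere were absent only from the C7 library of minipig 1, where a count of 0 allows a share of up to 0.0123%. They included miR-18a of the miR-17 to miR-92 cluster, miR-217 and miR-32. The 10 ssc-miRNAs with the largest mean share took 47.9%, 42.8% and 27.5% of the counts at C7 and 47.7%, 41.4% and 32.7% at C1 in minipigs 1, 2 and 3. Minipig 3 had the lowest share at both draws. Between 8 and 27 ssc-miRNAs made up 50% of a library, and 114 to 171 made up 90%.

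miR-4332 was the largest ssc-miRNA of each of the 6 libraries. Its share was 9.65%, 14.0% and 11.1% at C7 and 19.0%, 8.95% and 14.3% at C1. At C1 it stood higher than at C7 in minipigs 1 and 3 and lower in minipig 2, and the groups overlapped. miR-484, often proposed as a reference for plasma, followed with 2.48%, 8.76% and 8.14% at C7 and 15.9%, 6.02% and 11.7% at C1. Its lowest and its highest share both came from minipig 1. The intervals of counting error were narrow beside these differences. In the shallowest library the Wilson 95% confidence interval was 9.29% to 10.0% for miR-4332 and 2.29% to 2.68% for miR-484, and such intervals hold the error of counting alone, as reads copied by PCR count more than once.

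The other large ssc-miRNAs were miR-9850-5p (3.49% on average), miR-486 (2.84%), miR-9828-3p (2.81%), miR-186, miR-146a-5p, miR-490-3p, miR-490 and miR-124a. The rows of miR-490-3p and miR-490 held the same counts in every library and are 1 measurement. miR-146a restrains innate immune signalling and miR-124 is abundant in neurons. The share of miR-9850-5p ran from 0.37% in minipig 3 at C1 to 8.78% in minipig 1 at C7. The share of miR-9828-3p stayed within 1.61% and 3.71%.

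**Figure D1:**
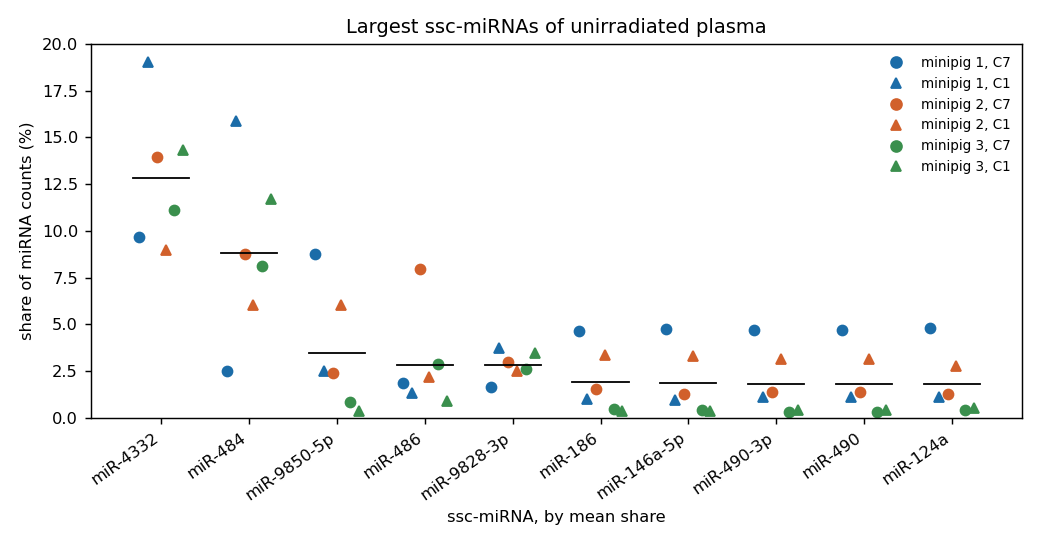
Share of all miRNA counts (y axis, percent, linear from 0) of the 10 ssc-miRNAs of largest mean share in 6 libraries of unirradiated plasma. Points are single libraries, circles for C7 and triangles for C1, coloured by minipig, and bars are means; miR-4332 is highest at 8.95% to 19.0%, and miR-186 to miR-124a are all highest in minipig 1 at C7, followed by minipig 2 at C1, and lowest in the libraries of minipig 3.

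Several of these large ssc-miRNAs rose and fell as a group from library to library. The measure of likeness was the SD over the 6 libraries of the log2 ratio to a leading ssc-miRNA, with miR-186, miR-4332 and miR-451 taken as leaders after their values were seen, so the values are a description with no test. miR-186, miR-146a-5p, miR-146b, miR-124a, miR-490-3p and miR-183 took 4.62% to 4.82% of the counts each in minipig 1 at C7, and together 28.3% of that library. They took 6.02% together at C1 in the same animal. In minipig 2 their sum was 8.07% at C7 and 18.7% at C1, and in minipig 3 it was 2.02% and 2.08%. The sum was thus highest at C7 in minipig 1 and highest at C1 in minipig 2. Within a library the largest of the 6 exceeded the smallest by 1.04 times in minipig 1 at C7, by 1.21 to 1.28 times in its C1 library and both libraries of minipig 2, and by 1.99 to 2.55 times in minipig 3. Only miR-146a and miR-146b of these 6 belong to 1 family.

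The SD of the log2 ratio to miR-186 was 0.13 for miR-146a-5p, 0.28 for miR-124a, 0.29 for miR-490-3p, 0.36 for miR-146b, 0.43 for miR-9850-5p and 0.52 for miR-183, against a median of 1.76 over all other ssc-miRNAs. In the 18 libraries after TBI with at least 1000 counts, the same SDs were 0.45, 0.67, 0.45, 0.79, 0.55 and 1.06, against a median of 2.15. These libraries came from the same 3 animals, and earlier results of these data were known at the choice. From minipig 3 they held only the draws of 6 h and 1 day after TBI. In those libraries miR-146a-5p and miR-490-3p ranked first and second of all ssc-miRNAs in likeness to miR-186. When the C7 library of minipig 1, in which these ssc-miRNAs were highest, was left out, the SDs before TBI were 0.12, 0.32, 0.31, 0.35, 0.47 and 0.55, against a median of 1.47. All these values share libraries, and a share that rises lowers the others of that library.

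A second group kept close ratios to miR-4332. miR-320 (SD 0.11), miR-139-3p (0.15), miR-92b-3p (0.17), miR-9845-5p (0.20) and miR-92b-5p (0.21) had the smallest SDs among ssc-miRNAs at a log2 CPM above 9, against a median of 0.82 over all. Without the C7 library of minipig 1 the SD of miR-9845-5p was 0.13, against a median of 0.73. After TBI the ratio held most closely for miR-92b-5p (0.26) and miR-139-3p (0.27), which ranked 4 or better among all ssc-miRNAs. For miR-320, the closest before TBI, the SD after TBI was 0.91, at rank 126 and still below the median over all others. miR-92b-3p and miR-92b-5p come from the 2 arms of 1 hairpin.

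Another group was made up of some of the red cell miRNAs. Beside miR-451, miR-16 (SD 0.27) and miR-144 (0.42) kept the closest ratios, against a median of 1.69 over all others, and they ranked second and first after TBI, with SDs of 0.75 and 0.71. miR-144 and miR-451 lie next to each other in the pig genome (RefSeq, Sscrofa11.1) and are processed from 1 primary transcript. The next ssc-miRNA in the 6 libraries, miR-30e-5p, stood at 0.98. Other red cell miRNAs kept a looser ratio to miR-451, with SDs of 1.18 for miR-486 (rank 18), 1.42 for miR-92a (rank 56) and 1.54 for miR-363 (rank 107). The SD was 0.76 for miR-486 (rank 3) and 0.94 for miR-92a (rank 7) without the C7 library of minipig 1, while miR-16 and miR-144 kept ranks 1 and 2.

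**Figure D2:**
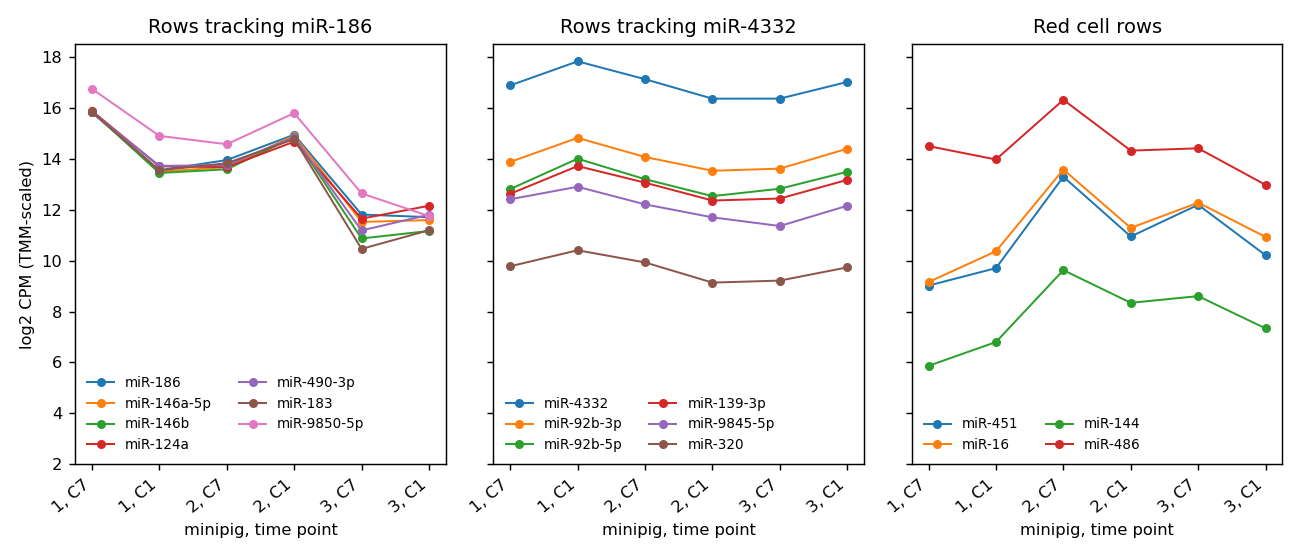
Level (y axis, log2 CPM with TMM scaling) of ssc-miRNAs that track miR-186 (left), miR-4332 (middle) or belong to the red cell (right) in the 6 libraries, ordered by minipig and then C7 and C1 along the x axis. Each line is 1 ssc-miRNA. The left group peaks at 15.8 to 16.7 in minipig 1 at C7, and miR-451, miR-16, miR-144 and miR-486 peak in minipig 2 at C7.

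Of the red cell miRNAs, miR-451, miR-16, miR-144, miR-486 and miR-92a were lower at C1 than at C7 in minipigs 2 and 3. miR-363 was higher there, by 0.525 and 0.044 log2 CPM. miR-451 had a log2 CPM of 9.02, 13.29 and 12.19 at C7 and 9.70, 10.94 and 10.21 at C1 in minipigs 1, 2 and 3. It was thus high at C7 in minipigs 2 and 3, and minipig 1 held it at a low level at both draws, from 10 counts at C7 and 95 at C1. miR-16 gave 9.15, 13.57 and 12.27 at C7 and 10.37, 11.28 and 10.93 at C1, in the same order of libraries. miR-144 gave 5.87, 9.62 and 8.60 at C7 and 6.80, 8.34 and 7.34 at C1, from a single count in minipig 1 at C7. miR-486 gave 14.49, 16.31 and 14.41 at C7 and 13.97, 14.31 and 12.97 at C1. It was lower at C1 in all 3 minipigs, as were 43 of all 411 ssc-miRNAs. miR-23a, the reference of the index, stayed between 9.40 and 10.21 in the 6 libraries.

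The haemolysis index, the log2 CPM of miR-451 less that of miR-23a, was -1.19, 3.42 and 2.78 at C7 and 0.015, 1.14 and 0.52 at C1. From C7 to C1 it moved by 1.21 in minipig 1 and by -2.28 and -2.27 in minipigs 2 and 3. The mean change was -1.12 ± 2.01 (SD, n = 3), with a two-sided exact permutation p = 0.5 over the 8 swaps of C7 and C1 within animals, which allow no p under 0.25. Without minipig 1 the mean change was -2.28. The 5 erythrocyte ssc-miRNAs summed to 2.75%, 10.6% and 4.57% of the counts at C7 and to 1.92%, 3.06% and 1.58% at C1, so that the sum was lower at C1 in each of the 3 animals. Most of the sum was miR-486 and miR-92a, which held 1.85% and 0.82% in minipig 1 at C7. In that animal miR-451 and miR-144 were higher at C1, by 0.68 and 0.93 log2 CPM.

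C1 was then set against C7 over all 411 ssc-miRNAs, which asks whether the 2 draws that serve as baseline differ. With edgeR's quasi-likelihood test, 2 ssc-miRNAs (0.487% of those tested) were lower and 1 (0.243%) was higher at C1 at an unadjusted p under 0.05, 0.73% in all, and 0 passed an adjusted p of 0.05. The DESeq2 Wald test called 16 without adjustment and 0 with it. The 2 lower ones were miR-92a and miR-133b and the higher one was miR-2320-3p. The median log2 fold change of all 411 was -0.02, and it moved to -0.14 with library size only, where 4 were lower and 0 higher without adjustment. The fit is made on counts, so a fitted fold change can differ from the mean of the 3 animals in log2 CPM.

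miR-92a, a member of the miR-17 to miR-92 cluster that is abundant in red cells, had 13.31, 13.97 and 12.81 log2 CPM at C7 and 12.58, 12.36 and 12.16 at C1. Every C1 library lay below every C7 library. How many of the 411 ssc-miRNAs separated in this way, in either direction, was not counted. Its fitted log2 fold change was -1.07 (standard error 0.36, adjusted p = 0.997 by edgeR), and it lost its unadjusted call without minipig 1 or without minipig 2, at values of -1.25 and -0.74. miR-2320-3p had 9.60, 10.35 and 10.53 at C7 and 10.93, 10.99 and 11.13 at C1, so that every C1 library lay above every C7 library, with a log2 fold change of 0.79 (standard error 0.37, adjusted p = 0.997 by edgeR). It lost its unadjusted call with any of the 3 animals left out, at values of 0.56 to 0.89. The call was also lost with library size only (0.66) and with thinned counts (0.59). miR-133b, a miRNA of striated muscle, had 8.87, 8.73 and 10.21 at C7 and 8.92, 8.52 and 8.63 at C1. Its fitted change of -0.79 (standard error 0.37, adjusted p = 0.997 by edgeR) rested on minipig 3, and without that animal the value was -0.09.

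Libraries of the same animal are paired, and with the animal as a block in the fit 2 ssc-miRNAs were again lower and 1 higher without adjustment, but the members were not all the same. miR-92a and miR-2320-3p kept their call, miR-133b lost it at a value of -0.77, and miR-7138-5p was called lower at -0.87 (adjusted p = 0.992 by edgeR). Without the block, none of the next 7 by p passed the unadjusted threshold. The fitted log2 fold change was -1.50 for miR-486 (standard error 0.72) and -1.95 for miR-451 (standard error 0.96), both with an adjusted p of 0.997 by edgeR. It was -0.85 for miR-7138-5p, -0.76 for miR-195, which shares the seed of miR-16, and -0.76 for miR-28-3p, a platelet miRNA. It was 1.15 for miR-9860-5p and 0.89 for miR-9786-3p. miR-7138-5p and miR-195 were lower at C1 in all 3 animals, by 0.49 to 1.68 and by 0.08 to 1.96 on the log2 scale, while miR-28-3p differed by 0.08 in minipig 3 in the opposite direction. Without the C7 library of minipig 1, miR-451 and miR-486 joined miR-92a and miR-133b, together with miR-16, and 5 ssc-miRNAs were lower and 0 higher at an unadjusted p under 0.05, again with 0 past the adjusted threshold.

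**Figure D3:**
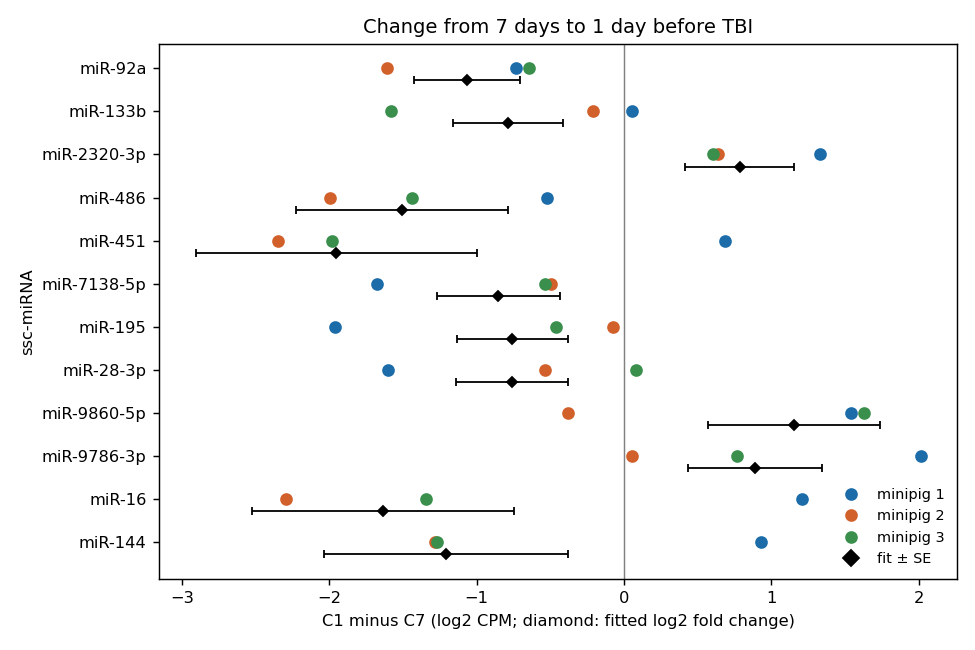
Difference C1 minus C7 (x axis, log2) of the 10 ssc-miRNAs with the smallest p in that comparison and of miR-16 and miR-144. Dots are single minipigs and diamonds the fitted log2 fold change of edgeR with its standard error; miR-451, miR-16 and miR-144 lie below 0 in minipigs 2 and 3 and above 0 in minipig 1.

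Read by cell of origin, the groups of marker miRNAs gave few calls. Of 5 erythrocyte ssc-miRNAs, 4 had a negative log2 fold change at C1 and 1, miR-92a, was called lower, with a median of -1.21. Over all 411 ssc-miRNAs, 214 were negative, 0.487% were called lower and the median was -0.02. The exception was miR-363 at 0.02. Without the C7 library of minipig 1, 5 of 5 were negative, 3 were called lower without adjustment (miR-451, miR-92a and miR-486) and the median was -1.60, beside 212 of 411 negative over all. Platelet and endothelial ssc-miRNAs had a median of 0.03 with 4 negative and 5 positive of 9 and no call. Without the C7 library of minipig 1 the median was -0.15 with 7 negative and 2 positive, and with DESeq2 size factors it was -0.01 with miR-28-3p called lower. The highest of them was miR-191, which ranged from 0.83% to 1.95% of the counts. The platelet and endothelial sum lay between 1.68% and 3.62%, and was higher in minipig 3 than in minipig 1 at both draws.

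Of the leukocyte miRNAs, miR-142 and miR-150 were low. miR-142-5p and miR-142-3p, found across leukocytes, summed to 0.035% to 0.149% of the counts, and both had a negative log2 fold change without a call. miR-223, the main miRNA of neutrophils, was not analysed here. Among 7 lymphocyte ssc-miRNAs, 6 were negative with a median of -0.57 and no call, but their sum ran from 0.81% to 9.85% and was made up mostly of miR-146a-5p and miR-146b, which follow miR-186. That median was 0.11 without the C7 library of minipig 1, with 3 negative and 4 positive. miR-150, the miRNA most typical of mature lymphocytes, stayed within 0.049% and 0.063% with an SD of 0.17 log2 CPM.

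Liver and gut miRNAs were the steadiest of the tissue groups. The 6 ssc-miRNAs summed to 0.52% to 0.86% of the counts, their median SD was 0.35 log2 CPM against 0.55 over all 411, and their log2 fold changes were positive for 6 of 6 with a median of 0.16 and no call. One turned negative without the C7 library of minipig 1, 1 with DESeq2 size factors and 2 with library size only. The liver miRNA miR-122 had 944.9, 974.0 and 837.7 CPM at C7 and 636.7, 1467 and 1002 CPM at C1, which overlapped. miR-192 was the most abundant of the group at 0.26% to 0.48%. Muscle and heart ssc-miRNAs were negative for 7 of 8 with a median of -0.26, and miR-133b was the call. Their sum lay between 0.13% and 0.56%.

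The 15 brain ssc-miRNAs summed to 1.57% to 6.13%. The largest of them in mean share was miR-124a, which follows miR-186 and alone took 0.42% to 4.82%. Of these 15, 12 were negative with a median of -0.12 and no call, and 3 pairs of identical counts make them 12 measurements. In the fit without the C7 library of minipig 1, 8 were negative and 7 positive, and with the animal as a block 9 and 6, with medians of -0.13 and -0.08. Smooth muscle and mesenchymal ssc-miRNAs (9, median 0.03, sum 0.33% to 0.59%), the let-7 family with miR-98 (9, median -0.27, sum 0.30% to 0.80%) and the miR-17 to miR-92 paralogs (9, median -0.41, sum 0.11% to 0.25%) had no call either. For the last of these, 8 of 9 were negative, and miR-19b was called lower with library size only. That list leaves out miR-92a and miR-363, which were counted among the erythrocyte ssc-miRNAs, and miR-92a was called lower. The small median of the smooth muscle and mesenchymal group turned to -0.03 without the C7 library of minipig 1, and that of the let-7 family was then -0.45. Of the epithelial list only miR-205 and miR-429 were analysed here, with a median log2 fold change of 0.50 and a sum of 0.15% to 0.91%. That median was 0.25 without the C7 library of minipig 1, with 1 negative and 1 positive. The 14 ssc-miRNAs proposed as references for plasma had a median of 0.11 with 6 negative and no call, but their sum reached from 4.50% to 19.1%, mostly from miR-484. Without the C7 library of minipig 1 their median was -0.07, 10 of 14 were negative and miR-16 was called lower.

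More ssc-miRNAs were called between animals than between draws, in fits that used different libraries. In an edgeR quasi-likelihood fit of the 6 libraries with animal and time point, 63 of 411 ssc-miRNAs differed between minipigs at an unadjusted p under 0.05, which is 15.3% of those tested, and 3 at an adjusted p under 0.05. Of the 63, 36 fell and 19 rose in mean level from minipig 1 through 2 to 3, the order of the depths, and 87.3% were ordered so against 55.7% of all 411. In counts thinned to the depth of the shallowest library, 44 of 411 differed without adjustment and 0 with it, and without the C7 library of minipig 1 these counts were 46 and 2. The part of depth in these differences was not tested otherwise. The 3 past it were miR-374b-5p, miR-374a-5p and miR-10a-3p, each with an adjusted p of 0.0138.

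miR-374b-5p had 12.69 and 9.96 log2 CPM in minipig 1 at C7 and C1, 9.09 and 9.32 in minipig 2, and 5.73 and 5.39 in minipig 3. miR-374a-5p, of the same seed family, had 12.59 and 9.56, 9.04 and 9.10, and 6.04 and 5.39. Both were thus highest in minipig 1 and lowest in minipig 3, without overlap between animals. The fitted log2 fold change of minipig 3 against minipig 1 was -6.23 for miR-374b-5p and -5.81 for miR-374a-5p. The counts behind them were 16 to 175 and 16 to 150.

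miR-10a-3p went the other way. It had 5.87 and 6.91 log2 CPM in minipig 1, 10.02 and 11.63 in minipig 2, and 11.89 and 11.81 in minipig 3, from 1 and 13 counts in minipig 1. The log2 fold change of minipig 3 against minipig 1 was 5.56. The other arm of the same hairpin, miR-10a-5p, had 12.12 to 12.85 log2 CPM in the 6 libraries and was the ssc-miRNA of smallest SD among the 62 with at least 50 counts in each. Without the C7 library of minipig 1 (a setting added once the values were known), miR-374b-5p and miR-374a-5p kept an adjusted p of 0.0398 and miR-10a-3p had 0.359. The call of all 3 was lost when minipig 1 or minipig 3 was left out.

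**Figure D4:**
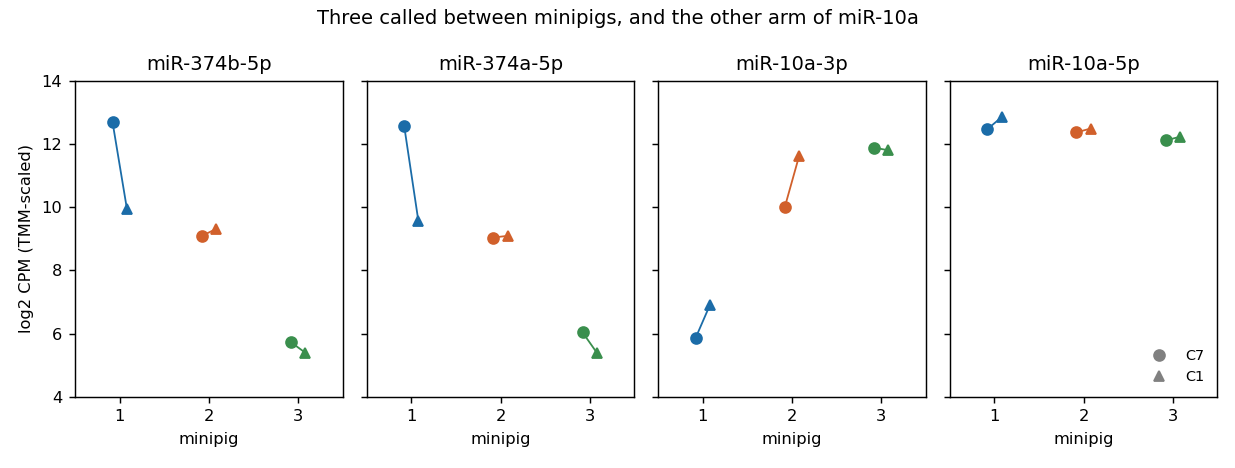
Level (y axis, log2 CPM with TMM scaling) in each minipig (x axis) at C7 (circles) and C1 (triangles) of the 3 ssc-miRNAs called between animals and of miR-10a-5p. miR-374b-5p and miR-374a-5p fall from minipig 1 to minipig 3, miR-10a-3p rises, and miR-10a-5p stays between 12.12 and 12.85.

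Whether a minipig was closer to itself than to another was measured by the median absolute log2 difference over the 411 ssc-miRNAs between a C7 and a C1 library. It was 0.94 in minipig 1, 0.46 in minipig 2 and 0.39 in minipig 3. The mean of these 3 was 0.595 against 0.609 for C7 and C1 of different animals, a difference of -0.01 (two-sided exact permutation test over 6 arrangements, p = 1; the smallest one-sided p is 0.167). By this measure the C7 library of minipig 3 was nearer to the C1 library of minipig 2 (0.34) than to its own. By Pearson correlation it was nearer to its own C1 library, at 0.97 against 0.92. In minipig 1, 48.7% of ssc-miRNAs differed by more than 1 on the log2 scale between the draws, against 14.6% in minipig 2 and 4.38% in minipig 3. Among the 62 ssc-miRNAs with at least 50 counts in each library the shares were 45.2%, 21.0% and 4.84%.

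Stable and unstable ssc-miRNAs were found at all levels of abundance. Among those 62, 14 stayed within a range of 1 log2 unit over the 6 libraries and 16 spanned more than 3, and without the C7 library of minipig 1 these numbers were 21 and 11. The 5 with the smallest SD were miR-10a-5p (0.25), miR-192 (0.27), miR-6782-3p (0.28), miR-339-3p (0.29) and miR-4335 (0.29), at mean log2 CPM of 11.50 to 12.43. The 5 with the largest were miR-183 (2.07), miR-146b (1.97), miR-9850-5p (1.89) and the identical miR-490 and miR-490-3p (1.77), all of the group that follows miR-186. The 62 had a median SD of 0.53, a median SD within animals of 0.55 and a median SD of animal means of 0.36. miR-23a had an SD of 0.26, miR-191 of 0.32, miR-484 of 0.90 and miR-16 of 1.53.

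**Figure D5:**
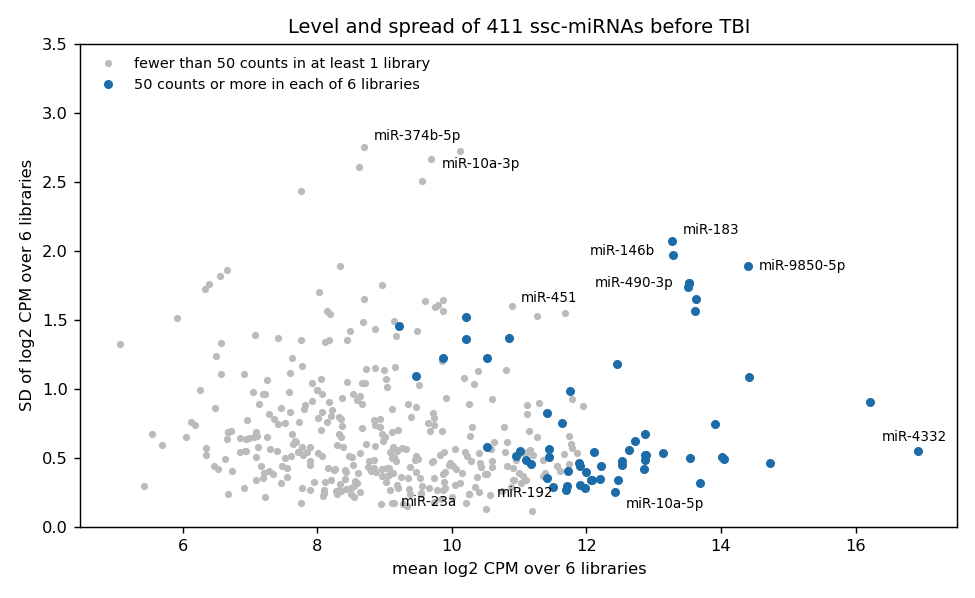
Mean log2 CPM (x axis) and SD of log2 CPM over the 6 libraries (y axis) of all 411 ssc-miRNAs before TBI, with those of at least 50 counts in each library in blue. miR-183, miR-146b and miR-9850-5p stand out at SDs of 1.89 to 2.07 among the abundant ones, and miR-10a-5p and miR-192 lie lowest at 0.25 and 0.27.

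The arm of the hairpin that dominated was often the same in every draw. Both arms of 78 hairpins were in the table, and the same arm was higher in all 6 libraries for 49, the 5p arm for 21 and the 3p arm for 28. Among 26 hairpins with at least 10 counts for both arms in each library it was the same arm for 19, and the median SD of the log2 ratio of the arms was 0.57. The steadiest ratios of hairpins named here were those of miR-92b (5p over 3p at -1.06 to -0.79, SD 0.10) and miR-339 (-0.71 to -0.35, SD 0.12). By SD the widest spread was that of miR-10a (2.75), whose 3p arm had a single count in minipig 1 at C7. Its log2 ratio was 6.22 and 5.98 in minipig 1, 2.36 and 0.86 in minipig 2, and 0.23 and 0.43 in minipig 3. The log2 ratio of miR-374b arms crossed 0, from 2.22 in minipig 1 at C1 to -0.93 in minipig 3 at C7.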

How the data were processed

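Reads were trimmed by the authors (cutadapt) and mapped with Bowtie, first to the pig genome and next to miRBase, and the deposited values are raw counts per ssc-miRNA without normalization; the submitters' notes name Bowtie2 2.2.3.0. Libraries were grouped by their labels. Of 30 libraries, 24 had at least 1000 counts and entered the fit of C1 against C7, with 10 time points as groups, TMM scaling, a CPM above 0.5 in at least 3 libraries (all 411 passed) and edgeR's quasi-likelihood test (edgeR 4.0.16, R 4.3.3), adjusted by Benjamini-Hochberg over 411. The animal test used the 6 unirradiated libraries. DESeq2 1.42.0 was an alternative. The scripts were tested on simulated data. Descriptive values came from Python 3.11.15. Arm ratios used a pseudocount of 0.5. Ratios, SDs and animal calls without the C7 library of minipig 1 were chosen after seeing the data.

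C7 and C1 libraries are paired by the animal number in the labels. The deviations of the pair from the group means correlated at 0.33, -0.33 and 0.82 in minipigs 1, 2 and 3. The 3 libraries of a group are separate animals. No libraries were duplicates, with at least 21.8 chi-square per degree of freedom.

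The members, gene lists and tests were chosen with earlier results of these data known, and lists are described by counts and medians only. Named ssc-miRNAs are the 10 largest shares, the 10 smallest p of C1 against C7, the 5 smallest and 5 largest SDs at 50 counts or more, the adjusted animal calls, the highest list members, and miR-451, miR-486, miR-144, miR-23a and miR-122. Members of the groups that track miR-186 and miR-4332, both arms of miR-10a, miR-92b, miR-339 and miR-374b, miR-150 and miR-16 were named after their values were seen.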

Additional observations from a re-analysis of the deposited data

Results flagged for a closer look

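Of 51 values tested for a library far from the other 5 (library measures, sums of marker lists and levels of named ssc-miRNAs), 2 were singled out, and chance alone singles out about 1 in 20 groups. The sum of the erythrocyte ssc-miRNAs was 10.6% of the counts in minipig 2 at C7, far above the other libraries, of which the next was 4.57%. In that library miR-486 alone took 7.96%. The level of miR-133b was 10.21 log2 CPM in minipig 3 at C7, from 644 counts, while the other 5 libraries lay between 8.52 and 8.92.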

How the results depend on the processing

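Adjusted calls of C1 against C7 stayed at 0 in every alternative. Unadjusted calls, 3 with the design as given, were 5 with DESeq2 size factors (0 higher, 5 lower), 10 with thinned counts (0 and 10), 16 with the DESeq2 Wald test (1 and 15) and 5 with only 5 libraries, without the C7 library of minipig 1. Libraries are paired by animal: the replicate block gave 3 (miR-7138-5p in place of miR-133b), the block with only the 6 libraries 0, and the block with thinned counts 9. Leaving out 1 library or animal gave 1 to 32 calls, 27 without C7 of minipig 3, 32 without minipig 2 and 1 without minipig 1, and 7 without C7 or without C1 of minipig 2.

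Adjusted animal calls, 3 as given, were 1 with library size only, 0 with thinned counts (44 unadjusted), 36 with all 24 libraries, 35 with the DESeq2 likelihood ratio test, and 0 to 59 with 1 animal left out (0 without minipig 1 or 3, 59 without minipig 2). The unadjusted count of 63 was 39 of the 233 tested with at least 10 counts in each of 6 libraries, 119 with all 24 libraries, and 6 to 94 with 1 animal left out. The distance between draws, -0.01, turned to 0.10 over ssc-miRNAs with at least 50 counts, and ran from -0.18 to 0.11 with 1 animal left out (0.02 without minipig 1, 0.11 without minipig 3). The haemolysis index kept its sign in all alternatives, at -2.28 to -0.53 with 1 animal left out. The causes were not tested. With 24341 counts in the shallowest library and a median standard error of 0.47 for C1 against C7, small changes were not detectable. The standard error was over 1 for 26 ssc-miRNAs, among them the abundant miR-146b (1.71) and miR-146a-5p (1.54).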

Other observations

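Neighbouring miRNA genes, which are often processed from 1 primary transcript, did not in general keep a fixed ratio in resting plasma. By name, 354 ssc-miRNAs matched a pig miRNA gene of RefSeq (Sscrofa11.1), and 31 groups of genes lay within 10 kb of each other. Over the 6 libraries the median SD of the log2 ratio within a group had a median of 0.74, against 0.90 over all 84255 pairs of ssc-miRNAs, and 18 of the 31 groups were below the latter. Beside the near-identical miR-105-1 and miR-105-2 (0.07), ratios were close for miR-98 with let-7f (0.37), miR-451 with miR-144 (0.42) and miR-363 with miR-18b and miR-106a (0.46). They spread most for miR-183 with miR-96-5p and miR-182 (1.62) and for miR-374b with miR-421 (2.37). No minimum count was set, and both wide and close groups hold ssc-miRNAs of few counts, such as miR-421-5p (3 to 51) and miR-98 (2 to 59). The part of low counts in these spreads was not tested.

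The step from C7 to C1 was set beside the following steps of the same animals, on log2 CPM of the 24 libraries. In minipig 1 the median absolute log2 difference was 0.94 from C7 to C1, 0.30 from C1 to 6 h after TBI (0d) and 0.41 from there to 1d. In minipig 2 it was 0.46, 0.44 and 0.35, and in minipig 3 it was 0.39, 0.48 and 0.25. The step between the unirradiated draws was the largest of the 3 in minipigs 1 and 2 and the middle one in minipig 3. In minipig 1 it started from the C7 library of 24341 counts. The share of ssc-miRNAs that differed by more than 1 was 48.4%, 14.6% and 4.38% from C7 to C1 in minipigs 1, 2 and 3. From C1 to 0d that share was 4.62%, 7.30% and 17.3%. The intervals differ in length, and the difference between steps was not tested.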
